A study of Gallus gallus with 6 samples.

Results

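The data described here are the sequences of exactly 23 nt in the small RNA of day 8 chick hearts (library CHL3, HH34), set against those of day 6 (CHL2, HH29) and day 12 (CHL5, HH38). HH is the Hamburger-Hamilton stage of the chick embryo. The lists of known miRNAs and of NSSCs, the study's term for sequences that miRBase does not hold, were pooled in each library. Every mature sequence with a listed length of 23 nt was kept, and a sequence with several lines was counted singly. In all 166 of the 830 distinct sequences of the 6 libraries were kept, 42 on day 6, 135 on day 8 and 60 on day 12. Joined by position they made 165 of the 657 loci of the series, and a locus is the unit used below.

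The series followed chick heart development from day 4 to day 14 of incubation with 1 small RNA library per stage. The embryos were untreated Gallus gallus embryos from hatchery eggs, the RNA of each stage was a pool from hearts, and the number of hearts and embryos behind a library was not given in the sources used here. No stage had a replicate, so no difference between days was tested and each interval given covers counting error only. Reads amplified by PCR without molecular identifiers are not independent molecules.

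The 23 nt reads numbered 128705 on day 6, 1215127 on day 8 and 185759 on day 12. They were 3.87% of all listed reads on day 6, 99.9% on day 8 and 2.40% on day 12, because the day 8 lists hold only 7 sequences of another length, all of 22 nt. The 23 nt sequences were therefore compared as shares of the listed 23 nt reads of their own library, and all 23 nt shares below are of listed reads.

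MicroRNAs are short RNAs cut from hairpin precursors by Drosha and then Dicer. They guide Argonaute proteins to messenger RNAs mainly through the seed, bases 2 to 8 counted from the 5′ end. A given arm of a hairpin yields isomiRs, forms that differ by a base or more at either end. A change at the 3′ end keeps the seed, while a change at the 5′ end shifts it. In heart muscle miR-133 is a classical muscle miRNA, while miR-9 is best known from neural tissue, miR-200 from epithelium and miR-146 from immune cells.

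The sequences that carried most 23 nt reads, or that the comparison turned on, are printed 5′ to 3′ as DNA letters with the seed in capitals. Positions after them are those deposited by the authors for Gallus gallus v.2.1, with the strand.
miR-133, chr2:105670370-105670392, minus: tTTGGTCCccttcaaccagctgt
miR-181, chr17:10218520-10218542, plus (also chr8:2001580-2001602, plus): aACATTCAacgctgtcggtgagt
miR-146, chr4:92169344-92169366, minus: tGAGAACTgaattccatggactg
miR-146, chr13:7555654-7555676, minus: tGAGAACTgaattccatgggttg
miR-301, chr15:406327-406349, minus: cAGTGCAAtaatattgtcaaagc
miR-454, chr15:399860-399882, minus: tAGTGCAAtattgcttatagggt
miR-130, chr19:7145039-7145061, minus: cAGTGCAAtgttaaaagggcatt
miR-103/miR-107, chr13:4449289-4449311, plus (also chr4:91906899-91906921, minus): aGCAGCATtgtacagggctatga
miR-21, chr19:7322089-7322111, plus: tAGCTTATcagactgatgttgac
miR-490, chr1:59948715-59948737, minus: cAACCTGGaggactccatgctgt
miR-9, chr28:2709377-2709399, plus (also chrZ:59286330-59286352, plus): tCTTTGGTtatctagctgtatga
miR-20, chr1:152248363-152248385, minus: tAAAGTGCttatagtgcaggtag
miR-20, chr4:3970099-3970121, minus: cAAAGTGCtcatagtgcaggtag
miR-29, chr1:3235362-3235384, plus (also chr26:2512576-2512598, minus): tAGCACCAtttgaaatcagtgtt

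The pairs that follow show what a 23 nt limit selects, a day 8 form beside the form listed for the same locus on both other days.
miR-10, chr7:17389108-17389130, minus, day 8: aCCCTGTAgaaccgaatttgtgt
miR-10, chr7:17389110-17389131, minus, days 6 and 12: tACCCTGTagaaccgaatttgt
miR-140, chr11:21030700-21030722, plus, day 8: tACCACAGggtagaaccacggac
miR-140, chr11:21030701-21030722, plus, days 6 and 12: aCCACAGGgtagaaccacggac
miR-30, chr3:85102244-85102266, plus, day 8: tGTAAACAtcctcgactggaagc
miR-30, chr3:85102244-85102267, plus, days 6 and 12: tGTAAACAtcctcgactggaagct
let-7, chr1:73421275-73421297, plus, day 8: tGAGGTAGtaggttgtatagttt
let-7, chr1:73421275-73421296, plus, days 6 and 12: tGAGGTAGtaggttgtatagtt

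A few loci held most 23 nt reads of every library. On day 6 the largest was miR-181 with 30.9% (39797 reads, 95% Wilson interval 30.7 to 31.2), and the 5 largest loci together held 76.0%. On day 8 the largest was again miR-181, a family with a role in lymphocyte and muscle differentiation, with 37.2% (452257 reads), and the 5 largest held 61.3%. On day 12 miR-133 led with 40.8% (75831 reads, interval 40.6 to 41.0), and the 5 largest held 83.2%. Among the listed 23 nt forms day 8 thus had the same leading locus as day 6 and, in second place, the leading locus of day 12. The order on day 12 depends on the listed form. There miR-181 of chromosome 17 was listed at 22 nt with 252289 reads, more than miR-133 had, and so entered no 23 nt share.

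**Figure D1:**
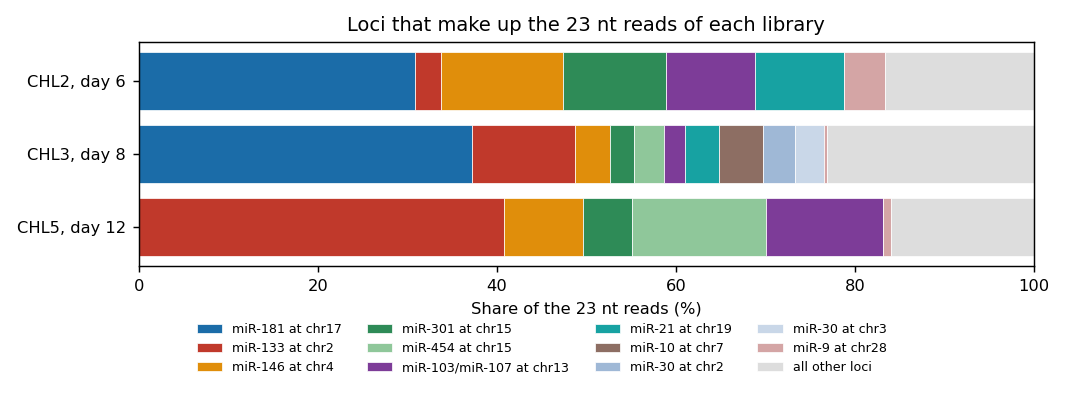
Horizontal bars give, for each library, the share of its 23 nt reads (%) held by 11 named loci and, in grey, by all other loci. miR-181 leads on days 6 and 8 (30.9% and 37.2%) and is not listed at 23 nt on day 12, while miR-133 has 2.82%, 11.5% and 40.8% in CHL2, CHL3 and CHL5.

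The lists differed in how many loci they held at 23 nt. Of the 165 loci, 23 were listed at 23 nt on all 3 days, 15 on days 6 and 8, 10 on days 8 and 12, and 1 on days 6 and 12. A further 87 were listed at 23 nt on day 8 and on neither other day, 26 on day 12 and on neither other day, and 3 on day 6 and on neither other day. The 87 day 8 loci held 30.8% of the day 8 reads. Only 23 of the 87 were listed at no length on both day 6 and day 12, and the rest had another length listed on at least 1 of these days. Of the 87 loci, 61 lay on hairpins of known miRNAs, beside 93 of all 135 day 8 loci. The 26 day 12 loci held 2.32% of the day 12 reads with a median of 6.5 reads. Of these 3 lay on known hairpins, beside 29 of all 60 day 12 loci.

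Many loci of day 8 were listed at another length on day 6 or day 12. Of the 135 loci, 38 were listed at 23 nt on day 6, 49 at 22 nt, 10 at 24 nt, 7 at 21 nt, and 31 were not listed. On day 12 the counts were 33 at 23 nt, 48 at 22 nt, 5 at 24 nt, 13 at 21 nt and 36 not listed. The commonest pattern over all 165 loci, with 40 of them, was a 22 nt form in CHL2 and CHL5 and a 23 nt form in CHL3. By reads, the loci listed at 23 nt held 65.5% of the day 8 reads for day 6 and 27.1% for day 12. The fall between them came with miR-181 on chromosome 17, listed at 22 nt with 252289 reads on day 12. None of the loci without a listing on day 6 or day 12 had bases 3 to 20 of its sequence listed there at another position.

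**Figure D2:**
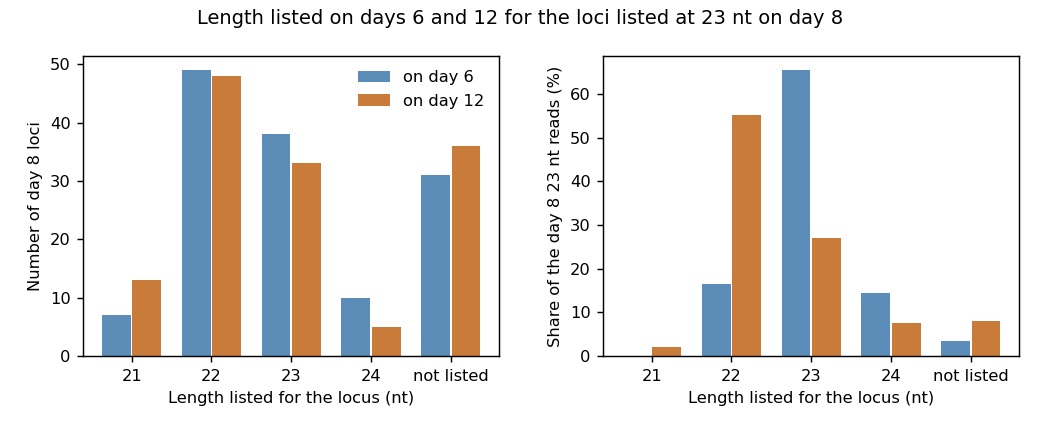
Bars count the 135 loci listed at 23 nt on day 8 by the length listed for the same locus on day 6 (blue) and day 12 (orange), at left as loci and at right as the share of day 8 23 nt reads (%). The 22 nt class holds 49 and 48 of the 135 loci, more than the 23 nt class with 38 and 33.

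With few exceptions each library listed 1 sequence for an arm, so on days 6 and 12 a locus counted as 23 nt where that was the form listed. The field for the opposite arm, which prints every form with its reads, held 9 sequences that were also listed on their own. Of these 3 were of day 6, 6 of day 12 and 0 of day 8. All 9 had the same reads in both places and were the most abundant form of their arm, so day 8 was not covered by this check. A locus at 23 nt on day 8 and at another length on day 6 or 12 is thus a difference in the listed form. The reads of its 23 nt form on the other days are mostly not given. The 31 day 8 loci without a listing on day 6, and the 36 without one on day 12, had no form listed there to compare.

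For most of these loci the seed was the same at both lengths. Of the 66 day 8 loci listed at another length on day 6, 51 had the same 5′ end and the same seed, and 12 started 1 base earlier on day 8. Of the 66 listed at another length on day 12, 51 again had the same 5′ end and 11 started 1 base earlier. The 15 loci with another seed held 7.54% of the day 8 reads for day 6 and the 15 for day 12 held 6.54%. Most of this was miR-10, a miRNA encoded in the HOX gene clusters, whose day 8 form of 59568 reads started 1 base later than the 22 nt form, which had 2403702 and 1027513 reads in CHL2 and CHL5. The day 8 form of miR-140, known from cartilage, started 1 base earlier and had 18023 reads, beside 12746 and 27979 reads of the 22 nt form. These are the miR-10 and miR-140 pairs printed above, in which the capitals shift by 1 base.

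The miR-30 family, which has broad targets in heart and other tissues, showed the 3′ kind of change. Its 4 loci held 104492 reads or 8.60% of the day 8 23 nt reads and none of the listed 23 nt reads on the other days. At the chromosome 2 locus 42641 reads on day 8 stood beside 56090 reads of a 24 nt form on day 6, and the locus was not listed on day 12. At the chromosome 3 locus shown above 39330 reads stood beside 57146 and 305333 reads of the 24 nt form on days 6 and 12. The day 8 form ended 1 base before the 24 nt form and kept the seed. miR-92 of the miR-17-92 cluster, a cluster of proliferation miRNAs, was the reverse case, with 36940 reads at 23 nt on day 8 and 89525 and 153926 reads at 22 nt on days 6 and 12.

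For the let-7 form shown above both lengths could be counted on all 3 days, with reads from the opposite-arm field where a form was not listed. let-7 is a miRNA of differentiated cells. The 23 nt form is listed at 4 positions, on chromosomes 1, 12, 24 and 26, and its reads are not divided among them. The 22 nt form had 8457 reads on day 6, 252 on day 8 and 417722 on day 12, and the 23 nt form had 6427 on day 8 and 11317 on day 12. Of the reads of both forms the 23 nt form took 2.38% in CHL2, 96.2% in CHL3 and 2.64% in CHL5, so the split was alike on days 6 and 12 and the opposite way round on day 8. Over the whole opposite-arm field the reads of 22 and 23 nt numbered 13637 and 461 in CHL2, 622 and 1447 in CHL3, and 784576 and 12531 in CHL5. These totals are not separate from the let-7 split, since they hold the field reads of the same let-7 form. In CHL5 that form gave 11317 of the 12531 reads of 23 nt, and its 23 nt reads are also in the CHL2 total. The split of the field without this form was not tested. The sequences of day 8 just outside the limit were 7 of 22 nt, the largest being miR-22 with 1177 reads.

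**Figure D3:**
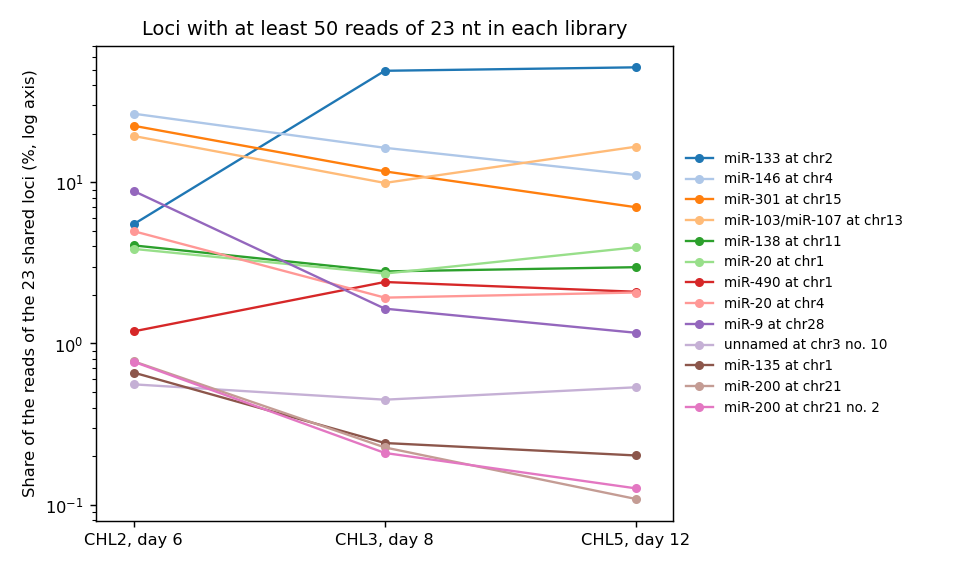
Points give the share (%, log axis) of the reads of the 23 loci listed at 23 nt on all 3 days held by each of the 13 loci with at least 50 reads in each library, for days 6, 8 and 12. miR-133 goes from 5.51% to 49.3% and 51.7% and miR-9 from 8.83% to 1.64% and 1.17%. The 2 miR-200 loci fall in a like way, from 0.775% to 0.226% and 0.108% and from 0.770% to 0.209% and 0.126%. The other loci keep a narrower range.

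As shares of all listed 23 nt reads, nearly every locus that day 8 had in common with another day was lower on day 8. Against day 6, 1 of 38 shared loci was at least 2-fold higher (2.63%) and 33 were at least 2-fold lower (86.8%), with a median log2 ratio of -2.42. Against day 12, 0 of 33 were at least 2-fold higher and 29 were at least 2-fold lower (87.9%), with a median of -1.59. Of the 23 loci on all 3 days 17 were at least 2-fold lower than on both (73.9%) and 0 were higher than on both. The loci shared with day 6 held 96.8% of the day 6 reads and 65.5% of the day 8 reads. Those shared with day 12 held 97.7% of the day 12 reads and 27.1% of the day 8 reads. The other day 8 reads thus lower the day 8 share of every shared locus. Within the reads of the shared loci, 30 of 38 were at least 2-fold lower than on day 6 and 2 higher (median log2 ratio -1.86). Against day 12, 5 of 33 were lower and 4 higher (median 0.26). The fold of 2 is a size and not a test, and both comparisons use the same day 8 library. RPM is the authors' scaling of every library to 1 total. In RPM 30 of 38 loci (78.9%) were at least 2-fold higher on day 8 than on day 6 and 0 lower. Against day 12, 31 of 33 (93.9%) were higher and 2 (6.06%) lower. The median log2 ratios were 1.54 and 3.86. The listed 23 nt reads made up 13920, 217416 and 4954 RPM on days 6, 8 and 12. RPM and share ratios thus differ by the same amount at every locus of a comparison. The length limit of the day 8 lists therefore enters the RPM ratios. The direction of a single locus thus turned with the scale in most cases. Loci are therefore described relative to the median locus of each comparison, to which the intervals given do not add its own error.

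On that scale 7 of 38 loci (18.4%) were at least 2-fold higher on day 8 than on day 6 and 4 (10.5%) at least 2-fold lower. Apart from miR-9 the lower loci had few reads, 15, 13 and 7 on day 6 and 12, 10 and 6 on day 8. Among the higher loci those off known hairpins had 15 and 7 reads on day 6. Against day 12 the counts were 0 of 33 higher and 5 (15.2%) lower. No locus was 2-fold higher, or lower, than the median against both days. Among the 23 shared loci, as shares of their own reads, day 8 lay between days 6 and 12 for 10, above both for 3 and below both for 10.

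**Figure D4:**
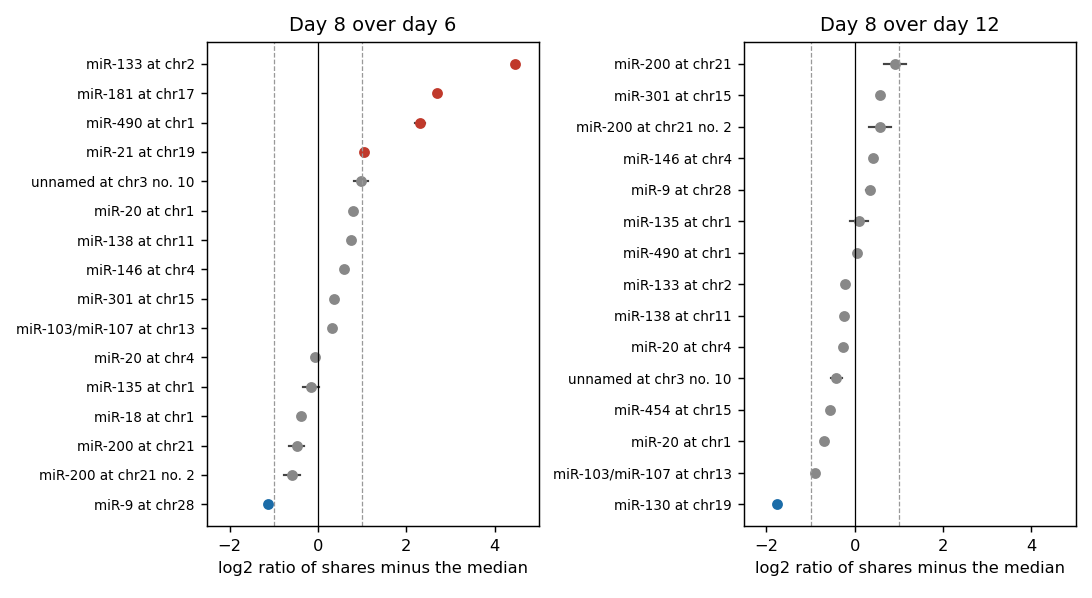
Points give the log2 ratio of shares on day 8 to day 6 (left) or day 12 (right), minus the median of all shared loci. Lines are 95% intervals of the counts, and dashed lines mark 2-fold. Drawn are the loci both days list that are among the 10 largest of a library or have at least 50 reads in each library. Loci named only as list members are not drawn. Among these are miR-29 (-7.42) and miR-34 (-5.50) against day 12 and miR-146 of chromosome 13 (3.05) against day 6. miR-133 (4.45), miR-181 (2.69), miR-490 (2.31) and miR-21 (1.04) lie past 2-fold above the day 6 median and miR-9 (-1.13) below it, while for day 12 miR-130 (-1.77) lies below. As shares of all 23 nt reads miR-490 and miR-21 are lower on day 8 than on day 6. In RPM, which the length limit of the day 8 lists enters, miR-9 is higher on day 8 than on day 6. In RPM miR-130 is higher on day 8 than on day 12.

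The muscle miRNA had the highest ratio to day 6. miR-133 on chromosome 2 had 3634 reads on day 6, 140274 on day 8 and 75831 on day 12, or 2.82%, 11.5% and 40.8% of the 23 nt reads. Relative to the median locus it was higher on day 8 than on day 6 by 4.45 on the log2 scale (4.41 to 4.50), and it differed from day 12 by -0.23 (-0.24 to -0.22). It was the fifth of the 13 loci with at least 50 reads in every library on day 6 and the first on days 8 and 12. Its ratio to miR-146 of the same library, which needs no scale, was 0.207 on day 6, 3.01 on day 8 and 4.66 on day 12. It was higher than on day 6 as a share of all 23 nt reads too (2.03 on the log2 scale) and in RPM (6.00). Relative to the median and by the ratio to miR-146 day 8 lay nearer to day 12 than to day 6, while as a share of all 23 nt reads its log2 ratio to day 12 was -1.82 and with sequences of 22 to 24 nt, relative to their median, 1.56. The sequence is listed with the NSSCs in each library and lies on the mature arm of the known miR-133 hairpin. The miR-133 loci of chromosomes 23 and 3 were at 23 nt on day 8 only, with 319 and 102 reads. On days 6 and 12 the first had 2690 and 14757 reads of a 22 nt form. The second had 330 and 2791 reads of a 21 nt form. These raw reads are of different forms and are not scaled for depth. The other heart and skeletal muscle miRNAs searched for, miR-1, miR-206, miR-208 and miR-499, had no 23 nt sequence on any of the days, so the heart label was read here from miR-133 alone.

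miR-490, a miRNA expressed in heart and smooth muscle, had a like pattern relative to the median. Its reads were 785, 6858 and 3070 on days 6, 8 and 12. Relative to the median locus day 8 was higher than day 6 by 2.31 (2.20 to 2.42) and matched day 12 within counting error (0.04, -0.02 to 0.11). As a share of all 23 nt reads it went from 0.610% to 0.564% and 1.65%, so on that scale it was slightly lower on day 8 than on day 6. Its ratio to miR-146 was 0.0446, 0.147 and 0.189.

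miR-181 was the largest locus of days 6 and 8. Its share went from 30.9% to 37.2%, a log2 ratio of 0.27 as a share of all 23 nt reads and 2.69 relative to the median (2.68 to 2.70). Its ratio to miR-146 was 2.26 on day 6 and 9.69 on day 8. Its sequence is listed on chromosomes 17 and 8, and its reads are not divided between these 2 places. A second miR-181 locus, of another sequence at chr8:2001764-2001786, was listed at 23 nt on day 8 with 28886 reads. On days 6 and 12 that locus was listed at 24 nt with 11765 and 16010 reads. The 2 loci together held 39.6% of day 8 reads. No 23 nt form of either was listed on day 12.

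miR-21, known for fibroblasts and cardiac stress, had 12837 reads on day 6 and 46568 on day 8, and 22 nt was its listed length on day 12 with 184897 reads. Relative to the median it was higher on day 8 by 1.04 (1.02 to 1.07), just past the 2-fold line and at 0.40 with the median taken over loci of at least 50 reads, and as a share of all 23 nt reads it was lower, 9.97% on day 6 and 3.83% on day 8. The miR-146 locus on chromosome 13, which differs from the locus on chromosome 4 near its 3′ end, had 85 and 1238 reads on days 6 and 8, 3.05 (2.73 to 3.36) above the median, and was listed at 22 nt with 106782 reads on day 12. The miR-146 locus on chromosome 4 had 17595, 46663 and 16271 reads and stood 0.59 (0.57 to 0.61) and 0.40 (0.38 to 0.43) above the median against days 6 and 12, although its shares of all 23 nt reads, 13.7%, 3.84% and 8.76%, were lowest on day 8. The 3 loci with the seed GAGAACT held 13.7% of the 23 nt reads on day 6, 4.04% on day 8 and 8.76% on day 12.

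miR-130, miR-301 and miR-454 have the seed AGTGCAA in common and were found at 4 loci, 3 of them within 8571 bases of chromosome 15. The loci of this seed listed at 23 nt, 1 on day 6, 4 on day 8 and 3 on day 12, held 11.5%, 6.64% and 23.5% of the 23 nt reads. miR-301 had 14802, 33317 and 10276 reads, and miR-454 had 40772 and 27697 reads on days 8 and 12 and a 24 nt form of 11471 reads on day 6. The ratio of miR-454 to miR-301 was 1.22 on day 8 (1.21 to 1.24) and 2.70 on day 12 (2.63 to 2.76). miR-130 on chromosome 19, known from vascular cells, had 3644 reads on day 8 and 5723 on day 12, which put it at -1.77 (-1.83 to -1.71) relative to the median. In RPM it was higher on day 8, by 2.09, and with 22 to 24 nt sequences it was near the median (0.025). miR-454 exceeded miR-130 of chromosome 19 11.2 times on day 8 and 4.84 times on day 12.

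miR-103/miR-107, a pair of near-identical miRNAs linked to metabolism and hosted by pantothenate kinase genes, was nearer to day 6 than to day 12 in its relation to miR-301. The ratio of miR-103/miR-107 to miR-301 was 0.864 on day 6 (0.844 to 0.885), 0.848 on day 8 (0.835 to 0.861) and 2.37 on day 12 (2.32 to 2.43). Relative to the median the locus was at 0.33 against day 6 and -0.90 against day 12, short of 2-fold in both. Its shares of all 23 nt reads were 9.94%, 2.32% and 13.1%.

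The miR-17-92 related clusters are known for growth and proliferation. The chromosome 1 cluster of 5 loci spans 628 bases and the chromosome 4 cluster of 3 loci 328 bases. miR-20 on chromosome 1 had 2549, 7736 and 5791 reads, and its paralog on chromosome 4 had 3282, 5485 and 3037. The ratio of the chromosome 1 to the chromosome 4 form was 0.777 (0.737 to 0.818) on day 6, 1.41 (1.36 to 1.46) on day 8 and 1.91 (1.82 to 1.99) on day 12, with day 8 between the others. miR-18 had 3700 and 5008 reads on days 6 and 8, and its ratio to miR-20 of the same cluster was 1.45 on day 6 and 0.647 on day 8.

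The neural list had 5 loci at 23 nt on day 8, of which 3 were shared with days 6 and 12. The others, miR-7 and miR-218, had 120 and 56 reads on day 8 and other lengths on days 6 and 12. Of the shared loci miR-9 alone was past 2-fold relative to the median, and only against day 6. miR-9 had 5824, 4685 and 1709 reads, and relative to the median day 8 was at -1.13 (-1.19 to -1.08) against day 6 and at 0.34 (0.26 to 0.42) against day 12. In RPM it was higher on day 8 than on day 6 by 0.41. It was the fourth of the 13 loci on day 6 and the ninth on days 8 and 12. miR-138 had 2679, 7975 and 4362 reads, and relative to the median it was at 0.76 against day 6 and -0.24 against day 12. Its ratio to miR-9 was 0.460 on day 6, 1.70 on day 8 and 2.55 on day 12. miR-137 had 59, 90 and 49 reads, with intervals that spanned the median against both days. The 2 miR-200 loci of chromosome 21, with 511, 645 and 159 reads and 508, 596 and 185 reads, stayed at a ratio near 1 (1.01, 1.08 and 0.859), and relative to the median both were lower on day 8 than on day 6 (-0.48 and -0.59) and higher than on day 12 (0.90 and 0.57), while as shares of all 23 nt reads both were lower on day 8 than on either other day.

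2 loci stood out against day 12. The miR-29 form shown above, known for collagen regulation, had 17 reads on day 8 and 1342 on day 12, at -7.42 (-8.11 to -6.73) relative to the median, and a miR-34 form on chromosome 24 had 12 and 250 reads, at -5.50 (-6.33 to -4.66). Both were lower on day 8 also in RPM. This form of miR-34, a family that in mammals acts downstream of p53, had 6 reads on day 6, and miR-29 was not listed at 23 nt there. A miR-34 locus of chromosome 21 with the same seed had 110 reads at 23 nt on day 8. On days 6 and 12 that locus had 50 and 944 reads at 22 nt. A further miR-34 locus of chromosome 24 was listed on day 12 only, with 17 reads.

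Of the listed day 8 loci that were not at 23 nt on the other days, the largest 5 were miR-10 (59568 reads), miR-30 on chromosomes 2 and 3, miR-92 and miR-199 on chromosome 17 with 30363 reads. miR-199, known from fibroblasts and muscle, was listed at no length at this locus on days 6 and 12. The same held for the loci of miR-126 of endothelium, whose 4100 reads lay on the arm opposite to the known one, and miR-144 of red blood cells with 3568 reads. Loci at 23 nt on days 6 and 12 and not on day 8 amounted to 1, on the miR-1467 hairpin, with 6 and 7 reads. Of the 2 miR-19 loci of chromosome 1, 1 had 4067 reads at 23 nt on day 6. miR-106 and miR-155 had 2457 and 1675 on day 12. None of these 3 loci was listed on day 8 at any length. The other miR-19 locus, of the same cluster and seed, had 1326 and 4116 reads at 23 nt on days 6 and 8.

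Several families were listed at 23 nt on day 8 and on neither other day. The list of miR-99, miR-100, miR-125 and let-7 had 9 loci, all of let-7 except miR-100 on chromosome 24, which held 35182 reads or 2.90% of the day 8 reads and were led by miR-100 with 23426 reads, beside 69146 reads of a 22 nt form on day 6 and 301263 of a 21 nt form on day 12. miR-15 and miR-16, which act on the cell cycle, held 5675 reads at 2 loci. miR-148 on chromosome 2 had 5602 reads beside 130914 and 689796 at 22 nt, and miR-26, also on chromosome 2, had 3800 beside 82749 and 984387. At these last 2 loci the raw day 8 reads were far below the reads of the 22 nt form on either day. At miR-16 and miR-140 they were of the same order (5635 beside 5361 and 18877 for miR-16). These raw reads are not scaled for depth, and the listed reads of all lengths were 3323231, 1216927 and 7749271 on days 6, 8 and 12. miR-122, the main miRNA of liver, had 1223 reads on day 8 beside 4939 and 82 at 22 nt.

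By list, the heart and skeletal muscle list held 2.82%, 11.6% and 40.8% of the reads on days 6, 8 and 12. The neural list held 6.65%, 1.06% and 3.29%, the epithelial list 0.792%, 0.230% and 0.185%, and the white blood cell list 13.7%, 3.96% and 9.66%. The fibroblast and matrix list held 9.97%, 6.33% and 0.722%, but from different loci, miR-21 alone on day 6 and miR-29 alone on day 12, where miR-21 was listed at 22 nt. Relative to the median against day 6 the muscle list had 1 of 1 shared loci higher, the neural list 1 of 3 lower and 0 higher, the epithelial list 0 of 2 past 2-fold, the white blood cell list 1 of 2 higher and the fibroblast and matrix list 1 of 1 higher, beside 18.4% higher and 10.5% lower over all 38 loci. The white blood cell list was lowest on day 8 by share. Its shared loci, all of miR-146, were above the median there, at 0.59 and 3.05 against day 6 and 0.40 against day 12. Changes in the number of cells of a type and in the RNA per cell cannot be told apart in these heart libraries.

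The exact sequences gave the same picture as the loci. 37 sequences were shared with day 6 and 33 with day 12, and 22 were in all 3 libraries. 1 shared locus, miR-6549 on chromosome 8, had another sequence on day 6 than on day 8, and none differed from both other days. The 23 nt sequences of the 3 libraries had the same median G and C content of 47.8%, and 59.5%, 53.3% and 41.7% of them began with T on days 6, 8 and 12. Each of the 49 sequences present in more than 1 library was in the same kind of list in all of them.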

How the data were processed

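The authors' lists give, per library, the deposited read count of every known miRNA and NSSC on a line for each locus, with its position on Gallus gallus v.2.1 and, as printed text, the forms of the opposite arm. They had removed adapters and low-quality reads and mapped unique tags with BLAT, allowing 1 mismatch. The deposited RPM was the authors' count times 1 constant per library, which agreed within 1% for all sequences compared. TopHat and Cufflinks are listed in the submitters' processing notes with no version.

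Sequences of 23 nt were joined into 1 locus when they overlapped by 15 nt or more on the same strand or were listed at several positions. Names come from known hairpins at the same place. Shares carry 95% Wilson intervals and ratios a 95% interval of the counts, computed in Python 3.11.15. The joining of loci and the ratio intervals were tested on simulated data, and the Wilson intervals were not. The loci named are the 10 largest in each library and the 10 highest and 10 lowest against the mean of days 6 and 12. The latter were taken among the 13 with at least 50 reads in each, and so were all 13. Also named are the 5 largest at 23 nt on day 8 alone and on days 6 and 12 alone. Members of 26 lists of miRNAs by family number were named too, and their leading results are in the text. The members, the lists and the rule were chosen with earlier results of these data known, and the use of the median locus as the scale of single loci after their values were seen. 2 lines of day 12 hold no values and were left out. Positions are those of the lists.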

Additional observations from a re-analysis of the deposited data

Results flagged for a closer look

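The 23 nt let-7 form of day 8 was absent from the lists of days 6 and 12 but present in their field for the opposite arm, which the comparisons of shares do not use, with 11317 reads on day 12. Its reads there equal 0.160% of the listed 23 nt reads on day 6 and 6.09% on day 12, above the 3 reads that a count of 0 allows, beside 0.529% for the listed let-7 form on day 8. A second let-7 form, on chromosome 12, had 38 reads in that field on day 12, equal to 0.0205% of the listed 23 nt reads, and 47 listed reads on day 8. How many other loci had unlisted 23 nt reads on days 6 and 12 was not tested, since only arms opposite to a listed one have this field.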

How the results depend on the processing

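No paired analysis was possible because each stage had 1 library and no test was run.

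The counts of loci at least 2-fold lower or higher depended on the scale. Scaled by the median ratio, 7 loci were higher and 4 lower than on day 6, 5 were lower than on day 12 and 0 lower than on both. Scaled by the reads of the shared loci, an alternative chosen after seeing the data, 2 were higher than on day 6, 4 higher and 5 lower than on day 12, and 2 lower than on both. In the authors' RPM, whose total was lowest on day 8, 30 of 38, 31 of 33 and 19 of 23 loci were higher than on day 6, day 12 and both. The length limit of the day 8 lists enters this scale. In RPM 0, 2 and 0 were lower. With sequences of 22 to 24 nt, 62, 50 and 37 loci were higher (60.2%, 54.3% and 43.5% of the shared loci). There 22, 25 and 15 were lower (21.4%, 27.2% and 17.6%). With any listed length 65, 56 and 41 were higher (59.1%, 53.3% and 42.3%) and 24, 30 and 19 lower (21.8%, 28.6% and 19.6%). Lower loci were thus most of the shared loci at 23 nt (86.8%, 87.9% and 73.9%) and a minority at these lengths. With the known lists alone, 0 of 22 were higher and 20 of 22 (90.9%) lower than on day 6. Against day 12, 19 of 20 (95%) of them were lower. With at least 50 reads, 16 of 20 (80%) were lower than on day 6. There 14 of 15 (93.3%) were lower than on day 12 and 10 of 13 (76.9%) lower than on both. Without the largest locus of each library, 0 of 36 were higher than on day 6. Under exact sequences and reads divided over loci all counts stayed within 1.5 times.

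Of 31 ratios relative to the median, 15 turned sign when scaled by the total, 14 in RPM, 13 with 22 to 24 nt, 13 with any length and 9 by the shared loci, most of them short of 2-fold. With at least 50 reads 4 turned, and miR-21 came to 0.40, miR-490 to 1.67 and miR-9 to -1.77 against day 6. Ratios past 2-fold changed sign in 7 cases. Scaled by the total of 23 nt reads, the log2 ratio to day 6 was -1.38 for miR-21 and -0.11 for miR-490, and by the shared loci -0.82 for miR-21. The ratio to day 12 of miR-130 on chromosome 19 was 0.025 with 22 to 24 nt, 0.72 with any length and 2.09 in RPM, and the ratio to day 6 of miR-9 was 0.41 in RPM. miR-133 of chromosome 2 stayed higher than on day 6 by 2.03 to 6.00 in the alternatives that gave it a value. The known lists do not hold the miR-133 form of chromosome 2 and gave none, and it is itself left out with the largest loci. Counts below 50 reads limit the small loci, and 1 library per stage leaves differences between embryos unmeasured.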
